A study of Mus musculus with 8 samples.

Results

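The Zfp genes of the mouse are named zinc finger protein genes, each symbol being Zfp followed by a number. The authors' deposited table of ARE-/- against WT hearts holds 4820 genes, and 50 of them are protein-coding genes with such a symbol (an added letter was allowed and Zfp36, whose protein binds AU-rich RNA, was left out). By the same rule of symbols the GENCODE M21 annotation holds 390 protein-coding Zfp genes, so 12.8% of the annotated Zfp genes are in the table, against 20.1% of all annotated protein-coding genes. The other 340 were not analysed here. The libraries came from total RNA of whole hearts of 4 ARE-/- and 4 WT male mice, 20 to 25 weeks old, all of the strain labelled C57B6/J. The labels call the first group knockouts with the genotype ARE-/- and do not spell out ARE. It is read here as the AU-rich element of the interferon gamma transcript, which limits how long that transcript lasts. The series is about interferon gamma, androgens and mitochondria in heart muscle cells.

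Most proteins of this name carry arrays of C2H2 zinc fingers, short loops in which a pair of cysteines and a pair of histidines hold a zinc ion, and neighbouring fingers read DNA bases in series. Many also carry a KRAB domain, which recruits the co-repressor TRIM28 and with it enzymes that deposit histone H3 lysine 9 methylation, and such proteins are known above all for silencing retroelements and imprinted regions. KRAB zinc finger genes lie in clusters that arose by duplication, are usually transcribed at low levels, and differ widely between mammals. A smaller number of Zfp proteins bind RNA, ribosomal precursors or chromatin enzymes instead.

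The building block that most of these genes share can be seen in their coding sequence. An 84-base finger unit, which codes for 28 residues, is shown for 2 KRAB genes with large falls, Zfp612 and Zfp667, and for the pair in the same cluster that rose, Zfp455 and Zfp429. The bases come from GRCm38 (mm10) with GENCODE M21 coding sequences, at chr8:110088841-110088924 (forward strand), chr7:6304770-6304853 (forward), chr13:67207000-67207083 (forward) and chr13:67390796-67390879 (reverse). Capitals mark the codons of the zinc-binding cysteines and histidines.
Zfp612: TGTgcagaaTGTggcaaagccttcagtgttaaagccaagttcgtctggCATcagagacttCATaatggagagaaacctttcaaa
Zfp667: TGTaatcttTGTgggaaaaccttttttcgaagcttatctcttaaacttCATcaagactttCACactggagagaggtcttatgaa
Zfp455: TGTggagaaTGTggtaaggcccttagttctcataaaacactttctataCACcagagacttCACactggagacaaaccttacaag
Zfp429: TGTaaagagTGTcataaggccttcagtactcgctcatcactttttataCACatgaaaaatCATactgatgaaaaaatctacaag
The units of the neighbours Zfp429 and Zfp455 were identical at 58 of 84 bases, those of Zfp455 and Zfp612 at 56 of 84, and those of Zfp612 and Zfp667 at 41 of 84. Counted over whole coding sequences, 23 of the 50 genes held at least 10 such fingers, 16 held 5 to 9 and 11 held 4 or fewer. A KRAB-like pattern was found in 20 of the 50 proteins.

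Of the 50 Zfp genes, 41 fell and 9 rose in ARE-/- hearts by the authors' deposited DESeq2 calls (adjusted p under 0.05). The table lists called genes only, 24.6% of the 19606 genes that the adjustment implies were tested, 12.8% risen and 11.8% fallen. Each of the 50 passed by construction, so the count to read is that of directions. Falls made up 82.0% of the Zfp genes, against 45.0% of the 4442 listed protein-coding genes and 47.9% of all listed genes, 52.1% of which rose. The median log2 difference (log2(normalised count + 0.5), averaged over hearts, ARE-/- minus WT) was -0.82 over the 50 genes, with quartiles of -1.17 and -0.63, against 0.44 over all listed genes. Differences of at least 2-fold were seen in 16 fallen and 3 risen genes, 38.0% of the 50 against 50.9% of all listed genes. The plot of the 50 differences shows this lean to the left.

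**Figure D1:**
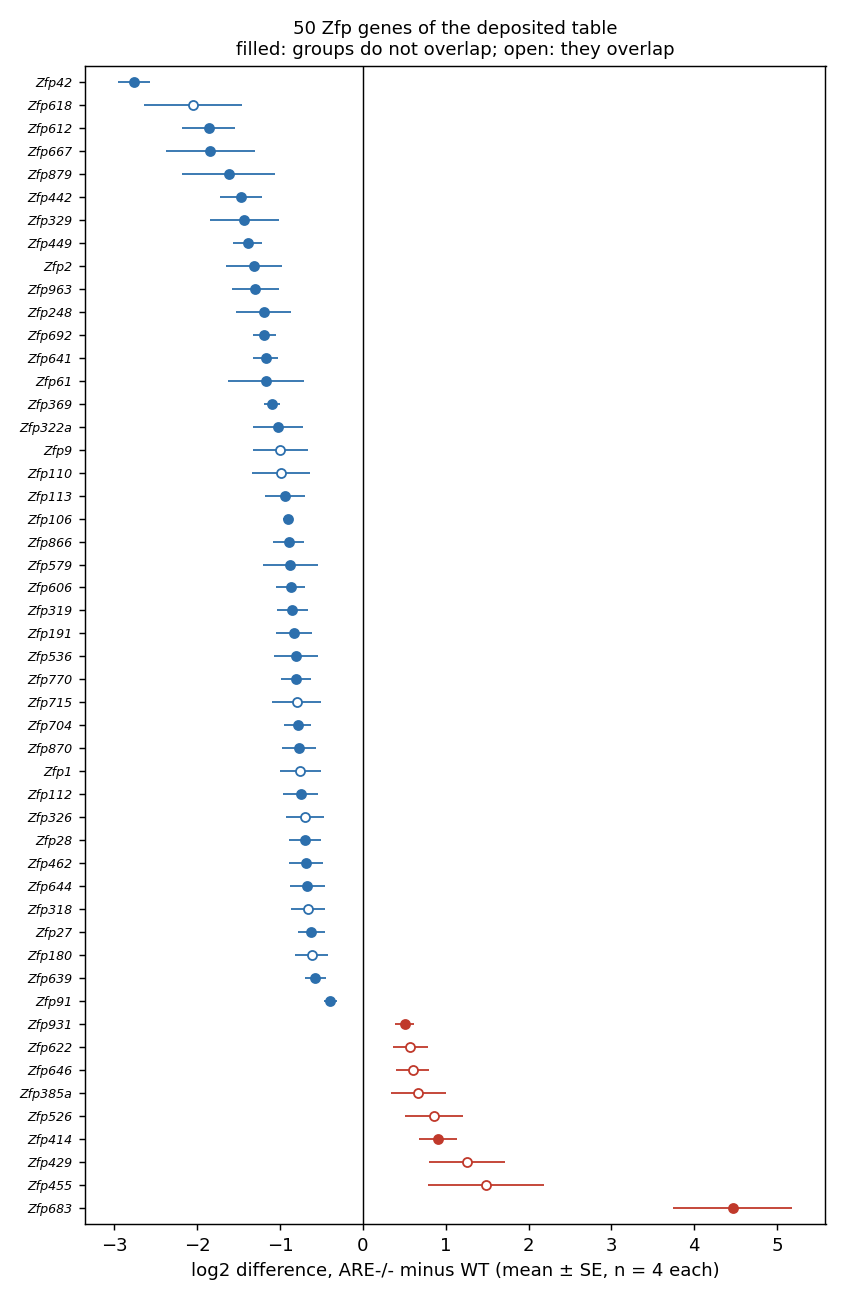
Log2 difference of each of the 50 Zfp genes, ARE-/- minus WT, as mean ± SE over 4 hearts in each group. The 41 fallen genes (blue) are drawn above the 9 risen genes (red), filled where the groups do not overlap and open where they do. Zfp42 had no reads in ARE-/- hearts, so its place on the axis depends on the offset of 0.5.

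In 36 of the 50 genes the 4 ARE-/- values lay entirely on one side of the 4 WT values, against 81.5% of all listed genes. Among the fallen genes 33 of 41 were separated in this way and among the risen genes 3 of 9 (Zfp683, Zfp414 and Zfp931), against 84.8% of listed fallen and 78.5% of listed risen genes. Adjusted p-values were high within the list: their median was 0.0152 for the Zfp genes and 0.00248 for all listed genes (the authors' deposited table, DESeq2). The genes were also low in level, with a median of 1.34 FPKM (fragments scaled to gene length and library depth) against 4.17 FPKM for all listed genes, and 18 of the 50 averaged under 1 FPKM. Zfp106 was the highest at 36.2 FPKM over all 8 hearts, followed by Zfp91 at 23.7, Zfp622 at 20.9, Zfp639 at 8.81 and Zfp110 at 5.57.

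Each library held between 13416171 and 19432098 reads. Ifng itself had 103, 37, 27 and 61 reads in ARE-/- hearts, against 0, 3, 0 and 1 in WT hearts. That is the direction which the reading of ARE used here would give, while the labels state none. Markers of cell types differed between the groups. All 9 listed of 10 T and NK cell markers rose, with summed normalised counts of 1399 to 2431 in ARE-/- hearts and 215 to 477 in WT hearts, as did 8 of 9 listed of 10 macrophage and monocyte markers (41689 to 57706 in ARE-/- hearts and 7431 to 12036 in WT hearts). All 6 listed of 10 cardiomyocyte markers, Tnnt2 and Ttn among them, fell, with sums of 211005 to 316830 in ARE-/- hearts and 432430 to 625874 in WT hearts. Of the smaller lists, Kdr (endothelial, 1 of 5 listed) and Pax5 (B cell, 1 of 5) fell and Col1a1 (fibroblast, 1 of 5) rose, and no listed marker was at 0 throughout a group. The part of these shifts in the Zfp results was not tested, and in bulk tissue fewer cells of a type and less RNA per cell cannot be told apart.

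The Zfp genes linked to the heart or to RNA came from lists of 4 and 12 genes, of which 2 and 5 were in the table. Zfp106, an RNA-binding protein whose loss causes muscle and motor neuron degeneration in mice, belonged to both and had the smallest adjusted p of the 50. It had 3356, 3839, 3830.1 and 3736 normalised counts (counts divided by the authors' size factors) in ARE-/- hearts, against 7270.4, 6743, 6463 and 7123 in WT hearts. The groups lay far apart, with little spread among the hearts of either group. Its log2 difference was -0.90 ± 0.06 (SE, n = 4 each), which left 53.5% of the WT mean, with an adjusted p of 9.7e-15 in the authors' deposited table (DESeq2). The gene (ENSMUSG00000027288) lies on the reverse strand of chromosome 2, from 120506820 to 120563843 in mm10, and 25.9% of the 31-base words of its transcripts also occur in other genes, mainly the overlapping model Gm26899, so that part of its reads cannot be assigned with certainty.

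Zfp667, known in rat as Mipu1 and induced there by ischaemic preconditioning of the heart, had the opposite kind of replicate spread. It had 59.7, 19.0, 11.4 and 13.6 normalised counts in ARE-/- hearts, against 80.5, 62.2, 87.1 and 73.0 in WT hearts. ARE-/- replicate 1 came close to the lowest WT heart, while the other ARE-/- hearts were far below it. The log2 difference was -1.84 ± 0.54 (SE) and -2.35 without ARE-/- replicate 1, with an adjusted p of 0.00928 in the authors' deposited table (DESeq2).

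Of the other 4 RNA-linked genes, 2 rose and 2 fell. Zfp622, a factor of the late steps of large ribosomal subunit assembly, had 723, 1231, 1172 and 1288 normalised counts in ARE-/- hearts, against 607, 787, 719 and 794 in WT hearts. ARE-/- replicate 1 lay among the WT hearts and the other 3 were above all of them, for a log2 difference of 0.57 ± 0.21 (SE, deposited adjusted p = 0.0236, DESeq2). Zfp385a, a p53-linked protein that binds RNA, had 109, 235, 255.5 and 289 normalised counts in ARE-/- hearts, against 108, 146, 143 and 129.5 in WT hearts, a log2 difference of 0.67 ± 0.33 (SE). With the GC trend removed from each library the log2 difference was 0.010 for Zfp385a, which lost its call, and 1.06 for Zfp622, which kept it in an edgeR refit. Zfp326, part of a complex that couples RNA polymerase II elongation to splicing, had 133, 94.0, 78.1 and 88.1 normalised counts in ARE-/- hearts, against 184, 183, 114 and 159 in WT hearts, and the groups overlapped through ARE-/- replicate 1 and WT replicate 3. Zfp318, needed in mouse B cells for the long transcripts of IgD, had 190, 112, 116 and 121 normalised counts in ARE-/- hearts, against 189, 214, 251 and 183 in WT hearts, with ARE-/- replicate 1 again at WT level. The log2 differences were -0.70 ± 0.23 for Zfp326 and -0.66 ± 0.21 for Zfp318 (SE).

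Among 24 Zfp genes with roles in signalling and chromatin, 3 were in the table and all fell. Zfp91, an E3 ubiquitin ligase that acts on a kinase of the non-canonical NF-κB pathway, had 1738, 1709, 1924 and 1825 normalised counts in ARE-/- hearts, against 2366, 2631, 2074 and 2412 in WT hearts. The groups did not overlap, yet the log2 difference was the smallest in size of the 50 genes at -0.39 ± 0.08 (SE, deposited adjusted p = 0.00981, DESeq2), and it turned to 0.066 when the trend with transcript GC content was removed from each library. Zfp644 and Zfp462 are partners of the histone methyltransferases EHMT1 and EHMT2. Zfp644 had 305, 154, 182 and 184 normalised counts in ARE-/- hearts, against 318, 311, 334 and 308 in WT hearts, so that ARE-/- replicate 1 sat just under the WT range and the other 3 well below it. Zfp462 had 58.1, 36.9, 54.4 and 42.5 normalised counts in ARE-/- hearts, against 81.7, 98.1, 63.9 and 65.8 in WT hearts. The log2 differences were -0.67 ± 0.21 and -0.69 ± 0.21 (SE).

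Cofactors through which KRAB proteins act moved in both directions. Of 28 genes of this machinery 9 were in the table, with 6 rises and 3 falls, where 52.1% of all listed genes rose, and a median log2 difference of 0.55 among the 9, where that of all listed genes was 0.44. Uhrf1, which brings DNA methyltransferase to replicated DNA, rose by 1.19 ± 0.15 (SE), and the histone methyltransferase gene Ehmt2 by 0.94 ± 0.28. Mphosph8, of the HUSH silencing complex, fell by 0.83 ± 0.32 and Hdac2, a histone deacetylase gene, by 0.53 ± 0.14 on the log2 scale. Trim28 and Setdb1 are not in the table and were not analysed here. None of 7 Zfp genes known for imprint or retroelement silencing, such as Zfp57 and Zfp809, was in the table.

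The largest rise of the 50 was that of Zfp683, which encodes Hobit, a regulator of tissue-resident T cells and NK cells in mice. It had 15, 36, 15 and 38 reads in ARE-/- hearts, against 0, 0, 2 and 1 in WT hearts. Summed over hearts this is 104 reads against 3, and the ratio per size factor was 28.3 with an exact 95% interval of 9.41 to 139, which covers counting error only. The log2 difference was 4.46 ± 0.72 (SE) and moves with the offset, to 2.23 with an offset of 5, and the authors' deposited table gives 3.27 with an adjusted p of 3.3e-07 (DESeq2). In normalised counts the ARE-/- hearts held 12.3, 40.3, 13.2 and 30.5, while the summed T and NK cell markers in the same hearts were 2431, 1399, 1453 and 1441. The part of these cells in the Zfp683 values was not tested. Ranked by transcript level per length, Zfp683 remained a low gene at 1.09 ± 0.59 FPKM in ARE-/- hearts and 0.030 ± 0.038 FPKM in WT hearts (SD, n = 4 each).

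**Figure D2:**
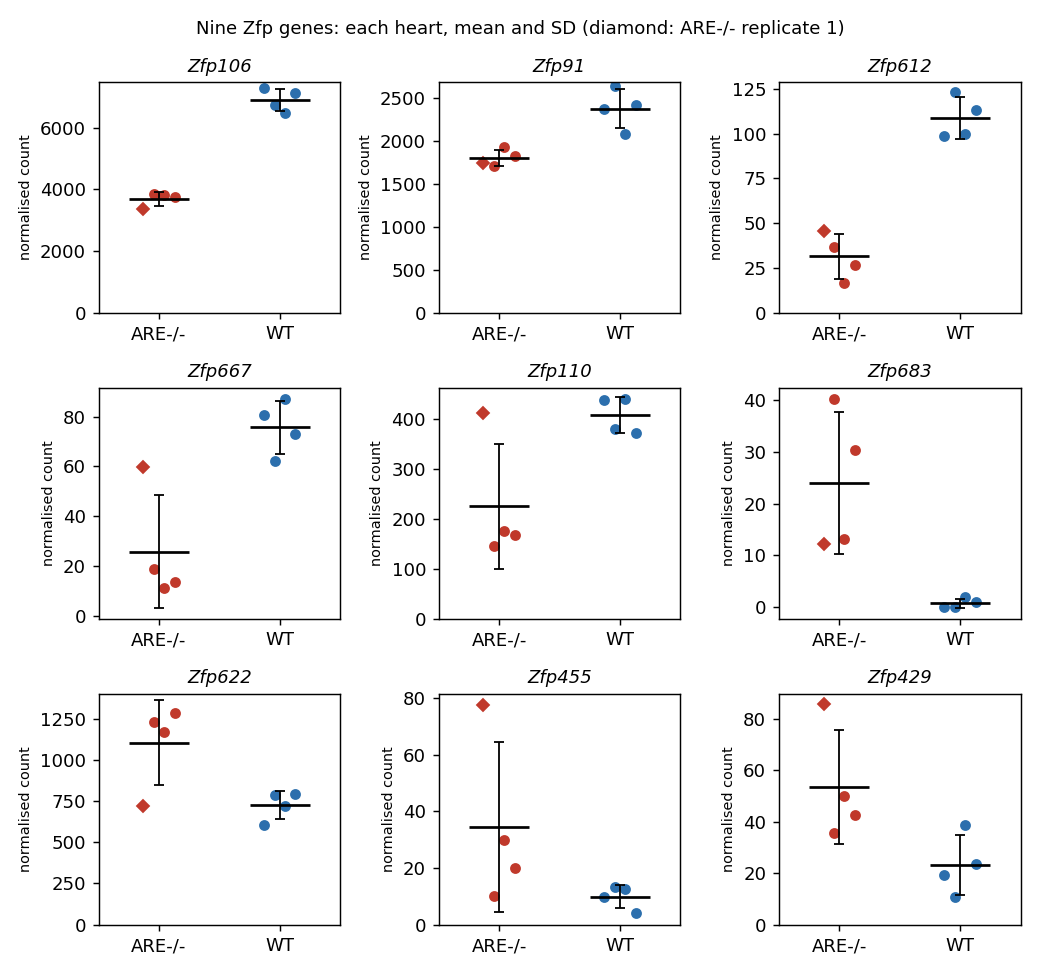
Normalised counts of 9 Zfp genes in each heart (dots, with a diamond for ARE-/- replicate 1), with the group mean and SD, ARE-/- on the left of each panel and WT on the right. Zfp106, Zfp91, Zfp612 and Zfp683 separate the groups in every heart, whereas in Zfp110 and Zfp622 the diamond lies within the WT range.

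Genes with and without a KRAB-like pattern were counted apart, and the difference between them was not tested. With a KRAB-like pattern 17 fell and 3 rose, with a median log2 difference of -0.92, and without it 24 fell and 6 rose, with a median of -0.80. Zfp612, a KRAB gene with 16 fingers on chromosome 8 (ENSMUSG00000044676, forward strand, 110079764 to 110090181), had the second smallest adjusted p of the 50, at 1.9e-07 in the authors' deposited table (DESeq2). Zfp612 had 45.8, 36.9, 16.7 and 26.4 normalised counts in ARE-/- hearts, against 98.5, 123, 99.7 and 113 in WT hearts, a log2 difference of -1.86 ± 0.32 (SE). Every ARE-/- heart was far below every WT heart. Zfp442 had 30.3, 16.8, 14.9 and 14.4 normalised counts in ARE-/- hearts, against 55.3, 55.04, 43.6 and 52.4 in WT hearts. Its adjusted p was 3.4e-04 in the authors' deposited table (DESeq2), but 45.9% of its 31-base words recur in other genes such as Zfp937 and its own share of the reads is uncertain. Zfp606 and Zfp866 fell to 55.5% and 54.5% of their WT means, with log2 differences of -0.87 ± 0.18 and -0.90 ± 0.18 (SE). Zfp606 had between 89.7 and 157 normalised counts in ARE-/- hearts and between 203 and 246 in WT hearts. Zfp866 had between 75.3 and 128 in ARE-/- hearts and between 152 and 192 in WT hearts, so neither gene's groups overlapped.

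Zfp110 and Zfp369 encode the related proteins NRIF1 and NRIF2, which bind the neurotrophin receptor p75. Zfp110 had 412, 145, 175 and 167 normalised counts in ARE-/- hearts, against 437, 381, 440.5 and 372 in WT hearts. Of the ARE-/- hearts, replicate 1 lay inside the WT range and the others far below it, so the log2 difference was -0.99 ± 0.35 (SE) with all hearts and -1.32 without that replicate (deposited adjusted p = 0.0349, DESeq2). Zfp369, by contrast, was even across the ARE-/- hearts, with 39.2, 35.8, 45.7 and 35.3 normalised counts, against 90.1, 86.2, 75.5 and 83.3 in WT hearts. Its log2 difference of -1.10 ± 0.10 (SE) had an adjusted p of 3.5e-05 in the authors' deposited table (DESeq2).

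Several genes without a KRAB-like pattern fell in every ARE-/- heart. Zfp449, on chromosome X, had 49.1, 35.8, 36.0 and 31.2 normalised counts in ARE-/- hearts, against 80.5, 109, 99.7 and 111 in WT hearts, a log2 difference of -1.39 ± 0.17 (SE). Zfp641 had 45.8, 45.9, 52.7 and 70.5 normalised counts in ARE-/- hearts, against 130, 109, 116 and 126 in WT hearts. Zfp692, a transcription factor with 5 fingers, had 49.9, 38.0, 46.5 and 34.5 normalised counts in ARE-/- hearts, against 97.3, 87.3, 108 and 92.5 in WT hearts. In all 3 genes the highest ARE-/- heart was below the lowest WT heart, and their adjusted p-values in the authors' deposited table (DESeq2) were 6.9e-07, 7.3e-06 and 7.6e-06. Zfp704, a glucocorticoid-induced gene in mice, fell to 58.8% of its WT mean (199.5 ± 44.6 normalised counts in ARE-/- hearts and 339 ± 24.4 in WT hearts, SD, n = 4 each). Zfp639, a transcription factor, fell to 67.4% of its WT mean, with 164 ± 25.1 normalised counts in ARE-/- hearts and 243 ± 26.8 in WT hearts (SD, n = 4 each). Its log2 difference of -0.57 ± 0.13 (SE) was -0.072 with the GC trend removed, and it lost its call there in an edgeR refit.

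The pluripotency genes Zfp322a and Zfp42, 2 of 4 on that list in the table, both fell. Zfp322a, which supports expression of stem cell factors in mouse embryonic stem cells, had 196, 72.7, 100.1 and 109 normalised counts in ARE-/- hearts, against 217, 232, 252 and 211 in WT hearts. Its first ARE-/- replicate was only just below the WT hearts. Zfp42, which encodes the stem cell marker REX1, was barely present, with no reads in any ARE-/- heart and 2, 3, 4 and 2 reads in WT hearts. Set against a floor of 3 reads over the ARE-/- group, it was 4.49-fold lower in ARE-/- hearts, a value that leaves out the counting error of the WT reads. Its log2 difference of -2.76 moved to -0.67 with an offset of 5. Its adjusted p of 0.0433 in the authors' deposited table (DESeq2) lies close to the threshold.

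The remaining risen genes were Zfp414, Zfp526, Zfp646, Zfp931, Zfp455 and Zfp429. Zfp414 had 52.3, 83.9, 90.4 and 88.9 normalised counts in ARE-/- hearts, against 39.6, 32.3, 48.4 and 45.2 in WT hearts, a log2 difference of 0.91 ± 0.23 (SE, deposited adjusted p = 0.00757, DESeq2), and 27.9% of its 31-base words are shared, mainly with the read-through model Gm20507. Zfp526 had 31.1, 78.3, 79.9 and 74.5 normalised counts in ARE-/- hearts, against 30.03, 28.7, 35.8 and 42.1 in WT hearts, with ARE-/- replicate 1 at WT level. Zfp646 showed the same layout, with 122, 181, 212 and 193 normalised counts in ARE-/- hearts, against 124, 94.5, 125 and 117 in WT hearts. Zfp931, a KRAB gene, was higher in every ARE-/- heart, at 159 ± 19.3 normalised counts in ARE-/- hearts and 111 ± 10.9 in WT hearts (SD, n = 4 each), and shares 39.8% of its words with other genes. With the GC trend removed the log2 differences were 0.31 for Zfp414, 0.27 for Zfp526 and 0.23 for Zfp646, and these 3 lost their call in an edgeR refit, while Zfp931 kept it at 0.95.

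Zfp455 and Zfp429 are KRAB genes that lie under 500 kb apart on chromosome 13, near Rsl1, a KRAB gene known in mouse liver to repress genes that are higher in males. Zfp455 had 77.7, 10.1, 29.9 and 20.03 normalised counts in ARE-/- hearts, against 9.61, 13.2, 12.6 and 4.11 in WT hearts. Zfp429 had 85.8, 35.8, 50.1 and 42.5 normalised counts in ARE-/- hearts, against 19.2, 10.8, 38.7 and 23.6 in WT hearts. ARE-/- replicate 1 was the highest heart for both genes, unlike for 6 of the 9 risen genes, where it was the lowest ARE-/- heart, and each pair of groups overlapped through a single ARE-/- heart. The log2 differences were 1.49 ± 0.70 and 1.25 ± 0.46 (SE) with all hearts and 0.97 and 1.00 without ARE-/- replicate 1. With the authors' size factors an edgeR refit called neither gene, with or without that replicate, nor did refits with TMM scaling or library totals. With the GC trend removed an edgeR refit called both, at 1.94 for Zfp455 and 1.71 for Zfp429. Of the other hearts left out singly, only ARE-/- replicate 2 gave a call of Zfp455 and only WT replicate 3 a call of Zfp429. Zfp429 shares 40.1% of its 31-base words with other genes, mainly Rsl1, and Zfp455 22.0%, mainly with Zfp456, so these reads may belong in part to neighbours.

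The promoter windows of this pair are shown because the genes lie in the same cluster and both rose. They come from RefSeq (GRCm38.p6), 250 bases before to 50 after the start, at chr13:67194256-67194555 (forward strand) and chr13:67399718-67400017 (reverse strand). Capitals mark the longest run that both windows hold with at most 1 differing base, 22 bases of which 21 are identical.
Zfp455: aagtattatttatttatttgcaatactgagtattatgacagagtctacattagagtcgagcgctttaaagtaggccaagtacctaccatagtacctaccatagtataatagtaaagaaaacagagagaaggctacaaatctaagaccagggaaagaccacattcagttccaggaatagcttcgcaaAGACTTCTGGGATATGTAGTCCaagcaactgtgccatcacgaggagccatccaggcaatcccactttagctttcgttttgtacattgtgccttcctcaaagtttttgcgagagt
Zfp429: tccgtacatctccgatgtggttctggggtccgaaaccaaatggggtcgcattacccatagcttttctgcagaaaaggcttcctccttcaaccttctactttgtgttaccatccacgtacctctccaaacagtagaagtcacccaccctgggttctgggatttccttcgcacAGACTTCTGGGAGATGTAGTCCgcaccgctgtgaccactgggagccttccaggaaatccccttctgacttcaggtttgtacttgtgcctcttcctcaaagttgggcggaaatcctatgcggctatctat
Windows were found for 39 of the 50 genes. The shared run of 22 bases was found, on either strand and with any base at the differing position, in 4 of the 27025 genes: Zfp429, Zfp455, Rsl1 and Zfp456, the last 2 of which are the main sharers of the pair's transcript words and were not analysed here. These are matches of letters in a window and not measured sites.

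Neighbouring genes shared their direction. With starts under 500 kb apart, 16 of the 50 genes formed 7 groups, of which 6 fell throughout and 1, Zfp455 with Zfp429, rose throughout. Chromosome 7 held 14 of the 50 genes, of which 12 fell, and chromosome 8 held 6, all fallen, whereas 43.0% of all listed genes on chromosome 7 fell. On chromosome 7 Zfp180, Zfp112 and Zfp61 fell by 0.62 ± 0.20, 0.75 ± 0.21 and 1.17 ± 0.46 on the log2 scale (SE), and Zfp606, Zfp329 and Zfp110 by 0.87 ± 0.18, 1.43 ± 0.42 and 0.99 ± 0.35. Since 82.0% of the 50 genes fell, a shared direction of neighbours was not tested against that share, and reads shared between duplicated neighbours could not be separated.

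**Figure D3:**
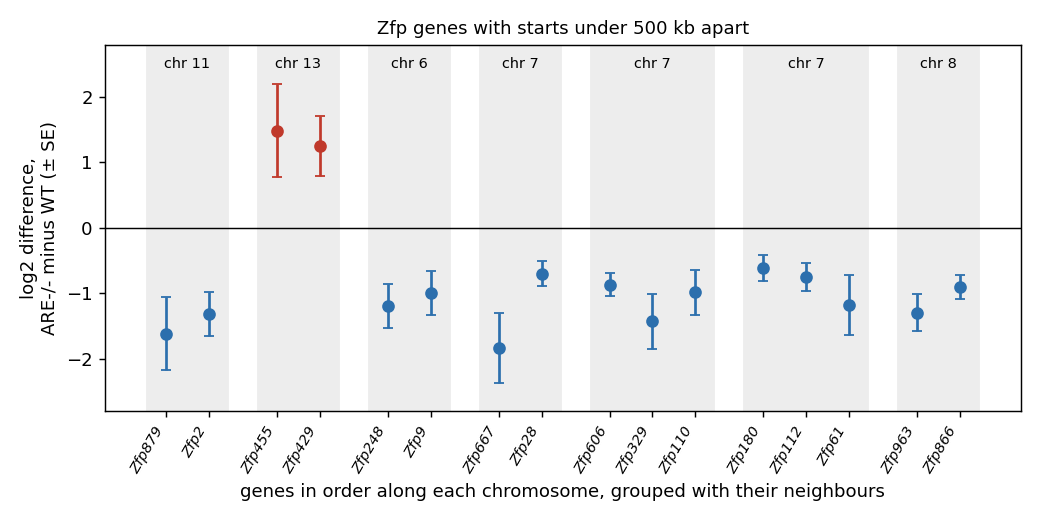
Log2 difference, ARE-/- minus WT (± SE, n = 4 hearts each), of the 16 Zfp genes that have another Zfp gene of the table within 500 kb, grouped and in order along each chromosome. The pair on chromosome 13 rose and the other 6 groups fell.

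Finger number, GC content and level were set against the differences as descriptions. Falls were 7 of 11 genes with 4 or fewer fingers, 15 of 16 with 5 to 9 and 19 of 23 with 10 or more, and Spearman's rho between finger number and difference was -0.096 over the 50 genes. The transcripts were poor in GC, with a median of 46.4% against 50.4% for all listed genes. Among other listed protein-coding genes the share that fell was 68.8% at 42 to 46% GC and 28.4% at 50% GC or more. Within the same ranges the Zfp genes fell in 13 of 15 and 9 of 14 cases, and in all 12 at 46 to 50% GC, where 60.4% of the others fell. Over the 50 genes rho between GC content and difference was 0.16, against 0.20 over 4435 listed protein-coding genes. All of these genes were measured in the same 8 libraries and share their depth and base composition bias. When the GC trend was removed from each library, the median difference of the Zfp genes was -0.51. An edgeR refit then called 16 fallen and 5 risen Zfp genes, beside 6.10% and 8.04% of 19606 genes. Only the 4820 listed genes were refitted, and 1195 of them were called fallen and 1577 risen. The authors listed 41 fallen and 9 risen Zfp genes among 2308 and 2512 listed genes, so the called share was smaller in the Zfp genes. Of the 29 genes named by rule 15 lost the authors' call there: Zfp91, whose sign turned, and Zfp369, Zfp606, Zfp866, Zfp667, Zfp639, Zfp326, Zfp318, Zfp644, Zfp110, Zfp462, Zfp414, Zfp646, Zfp526 and Zfp385a. That refit changed the tool as well as the GC setting. Without GC offsets the edgeR refit called 30 of the 50 fallen and 5 risen, so some were uncalled before the GC trend was removed.

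**Figure D4:**
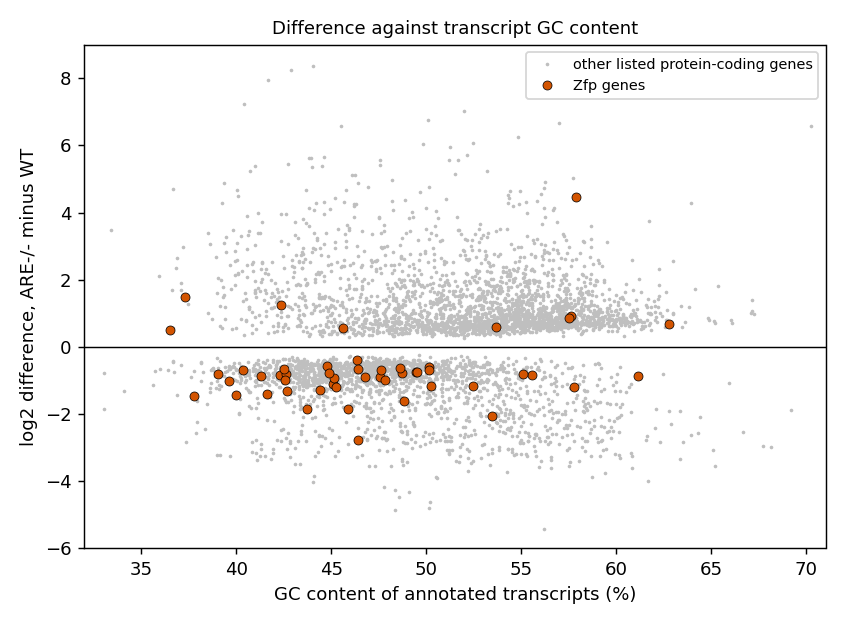
Log2 difference, ARE-/- minus WT, against GC content of the annotated transcripts for the 50 Zfp genes (orange) and the other listed protein-coding genes (grey). Most orange points lie below 0 at 42 to 50% GC, and the 5 risen genes above 50% GC lie where most grey points are also above 0.

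By level, 9 of 12 genes under 50 mean normalised counts, 17 of 21 between 50 and 150 and 15 of 17 at 150 or more fell, while the corresponding shares among the other listed protein-coding genes were 62.6%, 34.3% and 40.8%. Among the 41 fallen genes the size of the fall was larger in the lower genes, with a rho of 0.61 between mean normalised count and log2 difference. The table holds a low gene only where its difference was large enough to be called.

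ARE-/- replicate 1 stood apart in these genes. Relative to the WT mean, the median deviation of the 41 fallen genes was -0.41 in that heart and -1.04 to -0.97 in the other 3, whereas over all listed fallen genes it was -0.85 in that heart and as low as -1.10 in the others. That heart was the highest ARE-/- heart in 29 of the 41 fallen genes (70.7%), against 49.0% of all listed fallen genes. The same heart had the lowest sum of cardiomyocyte markers (211005 normalised counts, others 297794 to 316830) and the highest of T and NK cell markers and of macrophage markers, so it lay nearer to WT in its Zfp genes and farther from WT in these markers, and the part of cell makeup in this was not tested. Of 1000000 reads, 849, 688, 682 and 685 fell on the 50 genes in ARE-/- hearts, against 950.4, 937, 961 and 997 in WT hearts, and 46.8% to 53.7% of them in ARE-/- hearts and 53.5% to 58.9% in WT hearts came from Zfp106 and Zfp91. Without ARE-/- replicate 1 an edgeR refit called 40 of the genes fallen and 7 risen, beside 2168 and 2359 of the 4820 listed genes. The median difference was then -0.94, and 48 of the 50 genes did not overlap between groups.

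**Figure D5:**
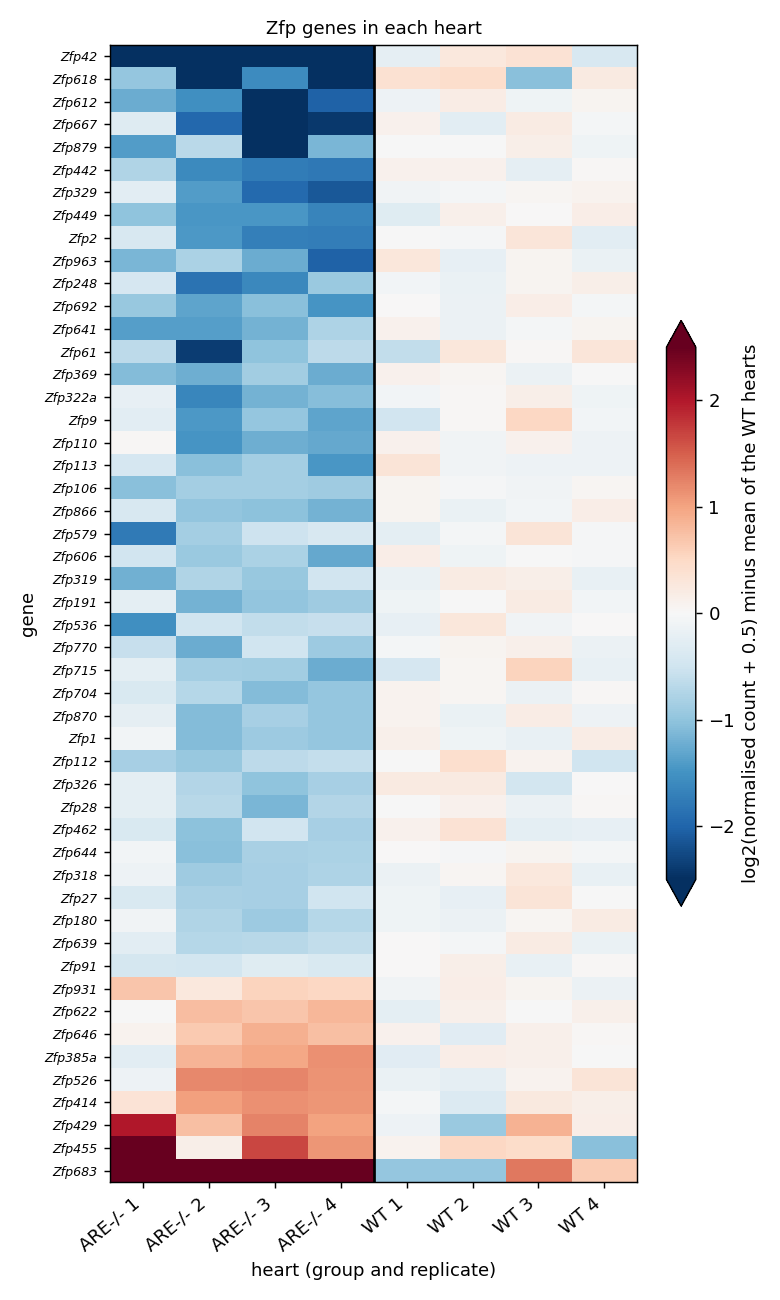
Log2(normalised count + 0.5) of the 50 Zfp genes in each heart minus the mean of the WT hearts, ARE-/- hearts on the left and WT hearts on the right, genes in order of their difference. The first column, ARE-/- replicate 1, is paler than the other ARE-/- columns over most fallen genes and bright for Zfp429 and Zfp455.

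The calls depended on scaling and on which hearts entered the fit. The authors' size factors were higher than library totals on the same scale in the ARE-/- hearts, mainly in replicate 1 (1.22 against 0.993). In ARE-/- replicates 2, 3 and 4 they were 0.894 against 0.850, 1.139 against 1.136 and 1.248 against 1.231. In every WT heart they were lower than library totals. Scaling by library totals moved the median of all listed genes by 0.20 on the log2 scale. An edgeR refit with the authors' size factors called 30 fallen and 5 risen Zfp genes, beside 10.5% and 11.4% of 19606 genes. Only the 4820 listed genes were refitted, so these shares count the other genes as uncalled. Called among the listed genes were 2062 fallen and 2230 risen. TMM scaling moved the median of all listed genes by -0.13. With it the refit called 41 and 2 Zfp genes, beside 2269 and 1653 listed genes (11.6% and 8.43% of 19606). With library totals the refit called 8 fallen and 7 risen Zfp genes, beside 5.12% and 12.4% of 19606 genes. Among the listed genes it called 1004 fallen and 2425 risen. No gene of the 50 changed sign with library totals. The authors listed 41 fallen and 9 risen Zfp genes, and 2308 fallen and 2512 risen genes in all. Against these numbers these refits called a smaller share of the Zfp genes than of all listed genes, except for falls with TMM scaling. With the authors' size factors, leaving out any single heart other than ARE-/- replicate 1 gave 13 to 18 fallen and 1 to 3 risen genes. Calls over all 4820 listed genes dropped in these fits from 2062 to between 1219 and 1768 fallen. Risen calls dropped from 2230 to between 1535 and 1919. In most of these fits the Zfp genes, with 30 fallen and 5 risen before, kept a smaller share of their calls than all listed genes did. In these refits the median of the Zfp genes lay 1.24 below that of all listed genes on the log2 scale with the authors' size factors, 1.23 below it with library totals and 0.55 below it with GC offsets, under which the median of all listed genes was 0.059.

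Other genes with zinc finger symbols moved in both directions. Of 30 listed genes with symbols of the Zbtb, Zscan, Zkscan, Klf, Sp, Zc3h, Zdhhc and Zmym patterns, 17 fell and 13 rose, with a median log2 difference of -0.48, where 47.9% of all listed genes fell. The difference from the Zfp genes was not tested. All 4 Klf genes fell, as did both Zscan and both Zkscan genes, and 4 of 9 Zbtb genes fell. The symbol patterns also take in genes that are not DNA-binding C2H2 zinc finger genes. Such are Zbtb8os, Sp110, Sp140, the Zc3h genes and the Zdhhc acyltransferases. Most of the 13 rises came from these: Zbtb8os, Sp110 and Sp140 rose, with 4 of 5 Zc3h and 2 of 3 Zdhhc genes. The pooled count is therefore not one of genes like the Zfp genes. In the authors' deposited table of Gene Ontology terms, 107 of 2065 terms held at least 1 of the 50 genes and 36 of the 50 were in no term. The most in a single term was 4 (Zfp639, Zfp692, Zfp536 and Zfp42), in RNA polymerase II core promoter proximal region sequence-specific DNA binding, with an adjusted p of 0.00157 in the authors' deposited table.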

How the data were processed

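Total RNA of whole hearts was sequenced as paired ends, per the labels' protocols. The submitters' processing notes name STAR, DESeq2 and the build mm10, without versions. Read counter, strand setting and annotation: not given in the sources used here, so overlapping, antisense and near-identical genes are uncertain. The deposited table of genes gives whole read counts and, computed by the authors, FPKM per library, a normalised signal per group (the mean of counts over size factors), log2 fold changes and p-values, raw and adjusted. A second deposited table gives p-values of Gene Ontology terms. Size factors were solved from the deposited group means, and library totals from counts and FPKM.

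The table lists only genes called by the authors, so their calls are the result, and tests on all genes could not be run anew. Log2 differences are means of log2(count over size factor + 0.5), ARE-/- minus WT, with the SE over 4 hearts each. Nothing in the labels beyond separate samples says how replicates were taken, and p-values measure the spread between these samples. Alternatives were refits with edgeR 4.0.16 (limma 3.58.1, R 4.3.3) or DESeq2 1.42.0, adjusted as if 19606 genes had been tested, other scalings (TMM, library totals), per-library GC offsets, a replicate block, stricter thresholds and leaving out libraries. Refits, TMM factors and GC trends used the 4820 listed genes only, so genes outside the table could not be called. All listed genes were called between the groups, so these factors and trends can hold part of the group difference. The edgeR refit with the authors' size factors was checked on simulated counts. The other scalings, the GC offsets, the replicate block and the DESeq2 refit were not.

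Transcript GC content, shared 31-base words, fingers (C, 2 to 4 residues, C, 12 residues, H, 3 to 5 residues, H) and KRAB-like patterns came from GENCODE M21 sequences. All 50 genes matched, 49 by identifier and 1 by symbol. The members and lists were chosen with earlier results of these data known. Genes named are the 10 risen and 10 fallen with the smallest adjusted p (9 rose), the 5 of highest FPKM and the listed members of the role lists, 29 in all, with neighbours added; Zfp536, Zfp113 and Zfp1 were named after their values were seen.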

Additional observations from a re-analysis of the deposited data

Results flagged for a closer look

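In each group of 4 hearts a value was picked out when its gap to the nearest other heart exceeded Dixon's 95% critical share of the group's range. Of 108 groups checked 13 were picked out, 10 of them through ARE-/- replicate 1, and chance alone picks out about 1 in 20.

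The first ARE-/- replicate was the high heart of its group in 6 fallen genes. It had 30.3 normalised counts of Zfp442 (others 14.4 to 16.8), 53.1 of Zfp2 (20.8 to 25.7) and 59.7 of Zfp667 (11.4 to 19.0). It had 190 of Zfp318 (others 112 to 121), 412 of Zfp110 (145 to 175) and 132 of Zfp1 (66.0 to 73.8). The same heart was the low heart of its group for Zfp536, with 25.3 normalised counts (others 48.3 to 52.6), and for Zfp526, with 31.1 (74.5 to 79.9). Of 1000000 reads, 849 fell on the 50 Zfp genes in ARE-/- replicate 1 and 682 to 688 in the other ARE-/- hearts. The summed normalised count of the fallen genes without Zfp106 and Zfp91 was 4399 in ARE-/- replicate 1 and 2754 to 2918 in the others.

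Among WT hearts, replicate 1 was high in Zfp113 with 133 normalised counts (others 97.6 to 100.5) and low in the sum of the 9 risen genes with 1041 (1237 to 1258). WT replicate 3 had the high sum of fallen genes without Zfp106 and Zfp91, at 6164 (others 5628 to 5718).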

How the results depend on the processing

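Counts are fallen and risen Zfp genes, 41 and 9 by the authors. An edgeR refit called 30 and 5, TMM scaling 41 and 2, library totals 8 and 7, and GC offsets 16 and 5, with counts over all listed genes given above. An adjusted p under 0.01 left 20 and 2, beside 1366 of 2308 listed fallen and 1766 of 2512 listed risen genes. A DESeq2 refit called 41 and 9, beside 2304 and 2505 of the listed genes. These genes were listed because DESeq2 called them in the same libraries, so that repeat is not support. Leaving out each heart gave 13 to 40 fallen and 1 to 7 risen genes, with 40 and 7 without ARE-/- replicate 1. Without ARE-/- replicates 2, 3 and 4 there were 14, 15 and 14 fallen, and without WT replicates 1 to 4 there were 13, 14, 17 and 18. These fits gave 1 to 3 risen, and over all 4820 listed genes 1219 to 1768 fallen and 1535 to 1919 risen. Without ARE-/- replicate 1 and WT replicate 3 together there were 41 and 8, beside 2272 and 2451 of the listed genes. The median difference was -0.51 with GC offsets, -0.62 with library totals and -0.94 to -0.79 when leaving out each heart. Genes without overlap numbered 20 with library totals and 36 to 48 when leaving out each heart. TMM moved the median of all listed genes by -0.13. Zfp91 alone among the named genes changed sign, to 0.066 with GC offsets; the cause was not tested. With a replicate block 26 fell and 3 rose, beside 1610 and 1863 of the listed genes. With GC offsets and the block 13 fell and 5 rose, beside 1070 and 1504. Same-numbered hearts correlated at 0.04, 0.05, -0.15 and 0.30, and differently numbered hearts at -0.33 to 0.31. So few values cannot settle whether the numbers pair the samples. Of 29 named genes 15, Zfp91 among them, lost their call with GC offsets and 14 with library totals, both in edgeR refits, which change the tool as well as the setting. An offset of 5 in place of 0.5 moved Zfp683 to 2.23 and Zfp42 to -0.67. The 8 hearts limit precision, and most of these genes had low counts.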
